A study of Mus musculus with 6 samples.

Results

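NK cells kill target cells partly by displaying death ligands, and they carry the receptors and signalling proteins that can turn the same signal on themselves. The genes described here are 9 parts of that system: the ligands Fasl and Tnfsf10, the receptor Fas, the adaptor Fadd, the protease Casp8, its inhibitor Cflar, the caspase inhibitor Xiap, and the kinases Ripk1 and Ripk3. They were taken by symbol from a table of 14490 genes, and all 9 had a row. NK cells had been sorted by FACS from the spleens of C57BL/6 mice, and polyadenylated RNA was sequenced in 3 WT and 3 cKO samples. Both genotypes carried floxed Mettl3 on both alleles (Mettl3fl/fl). The cKO mice also carried Cre in 1 copy of the Ncr1 locus, so the deletion falls on cells that have expressed NKp46, and the WT mice had no Cre. Mice were between 6 and 10 weeks of age, and no treatment or tumour is named for these samples. Whether each sample came from 1 mouse is not stated in the labels, so the p-values measure the spread between these samples only.

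In the extrinsic pathway, FasL or TRAIL (the product of Tnfsf10) on one cell clusters its receptor on another. The receptor recruits FADD, which recruits caspase-8, and caspase-8 then activates the executioner caspases. c-FLIP, the product of Cflar, is built like caspase-8 without its catalytic activity and limits it, XIAP blocks executioner caspases, and RIPK1 passes to RIPK3 and a necrotic form of death when caspase-8 is inactive. METTL3 is the catalytic subunit of the enzyme that writes N6-methyladenosine (m6A) on mRNA, most often at the A of the letters GGACT and near stop codons. The comparison therefore asks how the mRNAs of this death pathway differ between cKO and WT NK cells. Loss of METTL3 and the presence of Cre at Ncr1 cannot be told apart in this design.

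METTL3-deficient NK cells held less mRNA of the Fas ligand and receptor and more mRNA of 5 of the signalling genes downstream of them. Fas fell by 45.3% and Fasl fell by 23.0%, Ripk3 and Ripk1 rose by 28.3% and 26.3%, and Xiap, Cflar and Casp8 rose by 12.3%, 7.4% and 7.0%. Tnfsf10 and Fadd did not pass the test. In all, 7 of the 9 genes had an adjusted p under 0.05, with 5 higher and 2 lower in cKO. Without WT replicate 3 the number higher was 3, since Casp8 and Cflar no longer passed. Among all genes tested, 36.6% passed in either direction, 17.8% were higher and 18.8% were lower. Genes of this abundance pass more often: of those with a mean of at least 500 normalized counts, which holds for all 9, 50.7% passed. Values of the 3 cKO samples did not overlap with those of the 3 WT samples for the same 7 genes, and this held for 45.7% of all genes. The median absolute log2 fold change was 0.17 over the 9 genes, 0.17 over all genes and 0.13 over those with a mean of at least 500.

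Values are normalized counts, the reads of a gene divided by a size factor of the sample. Fold changes and tests come from limma on log2(normalized count + 1), two-sided, and p-values were adjusted over the 14490 genes (Benjamini-Hochberg). On the listed genes, 55965515 to 67732352 reads fell in WT samples and 62995813 to 71464042 in cKO samples. The lowest number of reads behind any value of the 9 genes was 511, for Fas. The deleted gene Mettl3 measured 1303, 1258 and 1192 normalized counts in the WT samples against 297, 299 and 405 in the cKO samples, a change of −1.92 on the log2 scale (limma adjusted p = 2.32e-14). All 10 NK-cell markers examined were present, and no marker of another cell type that had a row was at 0 in any sample. Cd8b1, S100a8 and S100a9 had no row. The summed level of 6 B-cell markers was 657 to 743 normalized counts in WT and 1018 to 1068 in cKO, with 4 of the 6 called higher. Over all genes, 17.8% were called higher. In whole-population RNA, fewer cells of a type and less RNA per cell cannot be told apart.

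The transcripts were read for the letters GGACT on the sense strand of 1 coding transcript per gene (GENCODE M21, GRCm38). In Fas, 2 matches were found, 1 of them in the coding sequence (chr19:34315185-34315209, plus strand) and 1 in the 3′ UTR with its A 166 bases past the stop codon (chr19:34327478-34327502, plus strand). Ripk1 held 8, of which the one nearest before the stop codon lay in the coding sequence with its A at −147 counted from the end of that codon (chr13:34032623-34032647, plus strand). Ripk3 held 4, including 1 in the 3′ UTR 77 bases past the stop codon (chr14:55785108-55785132, minus strand). These windows of 25 bases are shown because they belong to the most changed receptor and kinase mRNAs. Each is written 5′ to 3′ in transcript sense, with the motif in capitals.
Fas coding sequence: aaaaagttgaGGACTgcaaaatgaa
Fas 3′ UTR: caggttccagGGACTgcttctgtta
Ripk1 coding sequence: tgaaagagatGGACTgaaagagaaa
Ripk3 3′ UTR: taagcaacctGGACTggctaagaca

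Fasl was the only one of the 9 genes without a match, over a transcript of 1937 bases. The others held between 2 (Fas and Casp8) and 8 (Ripk1), with 3 in Tnfsf10, 4 in Ripk3, 6 in Xiap and 7 each in Fadd and Cflar. At least 1 match was therefore found in 8 of 9 genes, against 91.6% of the 11783 genes with a coding transcript. Within 200 bases of the stop codon a match was found in 5 of 9 (Tnfsf10, Fas, Fadd, Ripk1 and Ripk3), against 39.98% of genes. The 5 include the gene that fell most, the 2 that rose most and the 2 that did not pass the test. A match gives only the letters, and no m6A measurement was used here.

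Fasl, the membrane ligand that NK and T cells use to trigger death in Fas-bearing cells, lies on chromosome 1 (161780689 to 161788495, minus strand). Its normalized counts were 10003, 9903 and 9653 in WT and 7754, 7660 and 7343 in cKO. Every cKO value was below every WT value, and the gap between the genotypes was wider than the range inside either. The mean went from 9853 ± 181 to 7586 ± 215 (SD, n = 3 each), a log2 fold change of −0.38 with a 95% confidence interval of −0.45 to −0.31 (limma adjusted p = 1.95e-09). A smaller absolute change was seen in 80.3% of all genes.

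Tnfsf10, the gene of TRAIL, is the other death ligand of the set and the one typical of immature NK cells and ILC1 (chromosome 3, 27317028 to 27342427, plus strand). Normalized counts of 626, 636 and 522 were found in WT and 641, 543 and 666 in cKO. The genotypes overlapped, and the lowest sample of each lay apart from the other two. The log2 fold change was 0.05 with a 95% confidence interval of −0.14 to 0.25 (limma adjusted p = 0.718), so a fall of the size seen for Fasl lies outside the interval. The genotype effects on the 2 ligands were not tested against each other. The summed level of 6 ILC1 markers was 1440 to 1543 in WT and 1845 to 1883 in cKO. Of these markers, Il7r alone was called higher, which is also a gene of immature NK cells. The part of these cells in the result was not tested.

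Fas, the death receptor that binds FasL, changed most of the 9 (chromosome 19, 34290666 to 34327772, plus strand). Normalized counts were 967, 1004 and 1033 in WT and 520, 571 and 552 in cKO. The highest cKO sample lay well below the lowest WT sample. The log2 fold change was −0.87 (95% confidence interval −1.03 to −0.71, limma adjusted p = 7.65e-10), and 163 of the 14490 genes had a lower one. Fas is present on activated lymphocytes of many kinds, including B and T cells. The summed B-cell markers were higher in cKO, as given above, and the sum of 5 T-cell markers was lower, at 1724 to 1919 in WT and 1338 to 1551 in cKO. Of these 5, only Cd3g was called, with means of 802 normalized counts in WT and 478 in cKO. Means of Cd3d (710 and 660) and Cd4 (95.9 and 86.6) were lower in cKO without being called. Those of Cd3e (151 and 166) and Cd8a (45.2 and 71.3) were higher in cKO, also without being called. The part of B and T cells in the Fas result was not tested.

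**Figure D1:**
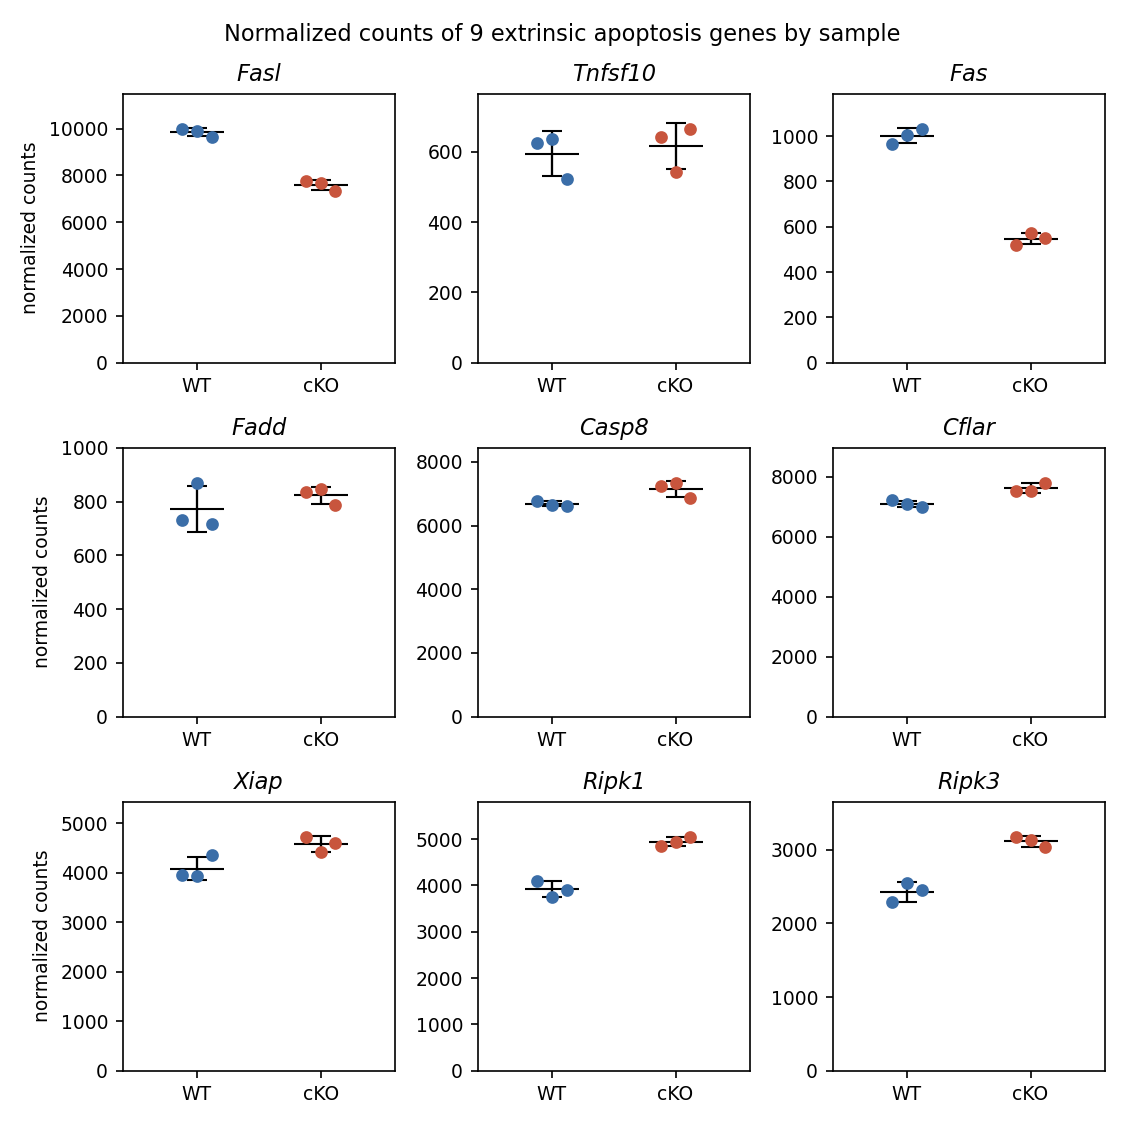
Normalized counts (vertical axes, each from 0) of the 9 genes in the 3 WT samples (blue) and the 3 cKO samples (red). Points are samples, the horizontal line is the mean and the error bar the SD. Fas drops from 967 to 1033 in WT to 520 to 571 in cKO, Ripk1 and Ripk3 are higher in every cKO sample than in any WT sample, and Tnfsf10 and Fadd overlap.

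Fadd, the adaptor that links the receptor to caspase-8, showed no difference at this precision (chromosome 7, 144577318 to 144582463, minus strand). Normalized counts were 732, 871 and 717 in WT and 836, 848 and 786 in cKO. WT sample 2 was the highest of all 6, above every cKO sample. The log2 fold change was 0.10 with a 95% confidence interval of −0.07 to 0.26 (limma adjusted p = 0.386). The span of the gene Faddos, introns included, overlaps that of Fadd on the opposite strand over 4195 bases. Faddos had means of 25.7 normalized counts in WT and 26.03 in cKO.

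Casp8, the initiator protease, and Cflar, its inhibitor, are neighbours on chromosome 1, 36489 bases apart (Casp8 58795374 to 58847503 and Cflar 58711508 to 58758884, both on the plus strand). Casp8 had 6773, 6662 and 6614 normalized counts in WT and 7229, 7350 and 6881 in cKO. For Cflar the values were 7213, 7085 and 7003 in WT and 7519, 7544 and 7808 in cKO. Both genes were higher in every cKO sample than in any WT sample, by a small margin. The log2 fold change was 0.10 for Casp8 (95% confidence interval 0.02 to 0.17, limma adjusted p = 0.0353) and 0.10 for Cflar (0.03 to 0.17, limma adjusted p = 0.0216). These calls depended on single samples. The limma adjusted p of Casp8 was 0.0712 without WT replicate 2, 0.0956 without WT replicate 3, 0.124 without cKO replicate 1 and 0.140 without cKO replicate 2. That of Cflar was 0.0734 without WT replicate 3 and 0.106 without cKO replicate 3. Casp8 and Gm37760 lie on the same strand, and their spans, introns included, overlap over 3841 bases. Gm37760 had means of 180 normalized counts in WT and 148 in cKO. It was not examined whether exons of Casp8 and Gm37760 overlap, or how reads in such a stretch were counted.

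Xiap, which binds and blocks executioner caspases, rose modestly (chromosome X, 42059679 to 42109656, plus strand). WT samples held 3956, 3934 and 4352 normalized counts and cKO samples 4727, 4411 and 4598. WT sample 3 and cKO sample 2 came closest to each other, and the genotypes did not overlap. The log2 fold change was 0.17 (95% confidence interval 0.08 to 0.26, limma adjusted p = 0.00353). With WT replicate 2 left out it was 0.14 (limma adjusted p = 0.0215).

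Ripk1 and Ripk3, the kinases of the necrotic branch, rose the most of the 9. Ripk1 is also a scaffold of TNF receptor signalling (chromosome 13, 34002363 to 34037147, plus strand). Its normalized counts were 4099, 3746 and 3907 in WT and 4853, 4932 and 5052 in cKO, a log2 fold change of 0.34 (95% confidence interval 0.25 to 0.42, limma adjusted p = 2.80e-07). Ripk3, the kinase that phosphorylates the pore-forming MLKL, lies on chromosome 14 (55784995 to 55788865, minus strand). Counts normalized in the same way were 2285, 2553 and 2455 in WT and 3180, 3135 and 3038 in cKO, a log2 fold change of 0.36 (95% confidence interval 0.26 to 0.46, limma adjusted p = 1.01e-06). In both genes the lowest cKO sample stood clear of the highest WT sample. Only the span of Ripk1, introns included, overlaps those of listed genes: Gm17083 over 1366 bases and Serpinb6a over 432 bases, both on the opposite strand. Gm17083 itself was higher in cKO (means of 200 and 322 normalized counts, log2 fold change 0.71, limma adjusted p = 0.000279), and Serpinb6a was lower (means of 1198 and 932 normalized counts, log2 fold change −0.37, limma adjusted p = 0.000184). Whether strand was used in counting is not given in the sources used here. Whether exons of Ripk1 overlap exons of either gene was not examined.

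**Figure D2:**
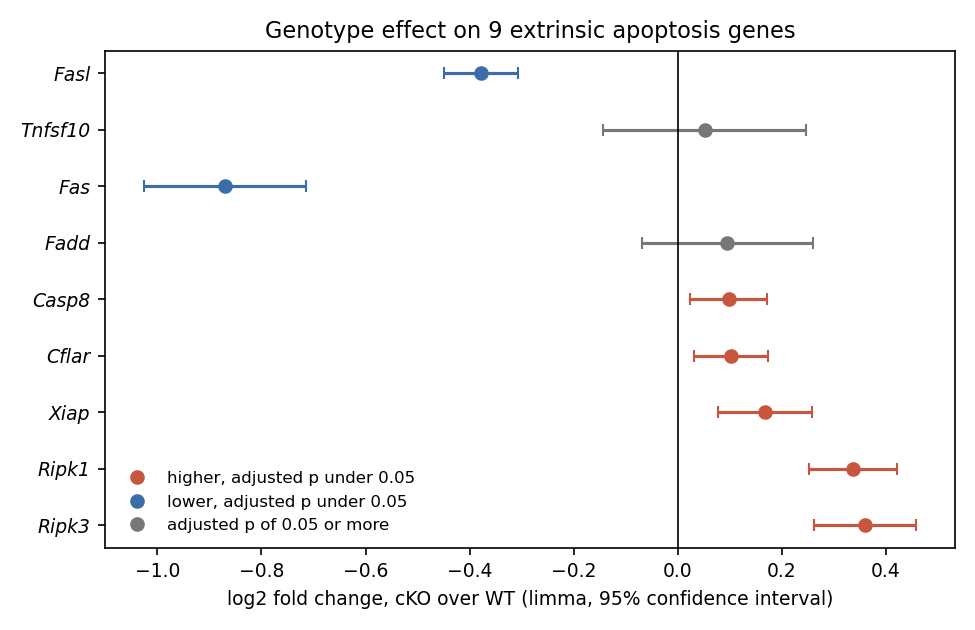
Log2 fold change of cKO over WT (horizontal axis, log2(normalized count + 1) scale) for the 9 genes, with limma 95% confidence intervals as bars. Red marks an adjusted p under 0.05 and higher in cKO, blue the same and lower, grey the others. Fas at −0.87 is the only gene whose interval reaches below −0.5, and the 5 genes in red lie between 0.10 and 0.36.

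For 8 of the 9 genes the 95% confidence interval lay inside −0.5 to 0.5 on the log2 scale; Fas was the exception. The study itself asked for an unadjusted p under 0.05 together with a change of more than 1 in size on the log2 scale. None of the 9 genes met that rule, which 1.75% of all genes did. A two-sided exact permutation test of single genes, with 20 ways to split the samples, gave p = 0.1 for each of the 7 genes called, the smallest p it can give, 0.5 for Tnfsf10 and 0.4 for Fadd.

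Levels of different genes were compared per kilobase of exon, as a description without a test. Fasl was the most abundant mRNA of the set in WT, with 5087 ± 93.2 normalized counts per kilobase (SD, n = 3). Casp8 followed with 2310 ± 28.2, Ripk3 with 1061 ± 59.2 and Cflar with 560 ± 8.34. Below these, Fas (486 ± 16.1), Ripk1 (469 ± 21.2) and Xiap (431 ± 24.9) formed a group in which neighbours overlapped between samples. Fadd (198 ± 21.7) and Tnfsf10 (113 ± 12.0) were lowest, and the ligand Fasl was thus many times as abundant as the ligand Tnfsf10.

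In cKO the order at both ends was the same, with Fasl at 3916 ± 111 and Tnfsf10 at 117 ± 12.4 normalized counts per kilobase (SD, n = 3). Fas moved from the fifth place to the seventh, at 266 ± 12.6, below Ripk1 (593 ± 12.0) and Xiap (484 ± 16.8). Ripk1 now overlapped with Cflar (602 ± 12.6). The other neighbours in cKO, Fasl, Casp8 (2473 ± 84.2), Ripk3 (1360 ± 31.8), Xiap, Fas, Fadd (211 ± 8.33) and Tnfsf10, did not overlap between samples. Dividing by the length of the 1 chosen transcript in place of all exons gave the same order in both genotypes.

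**Figure D3:**
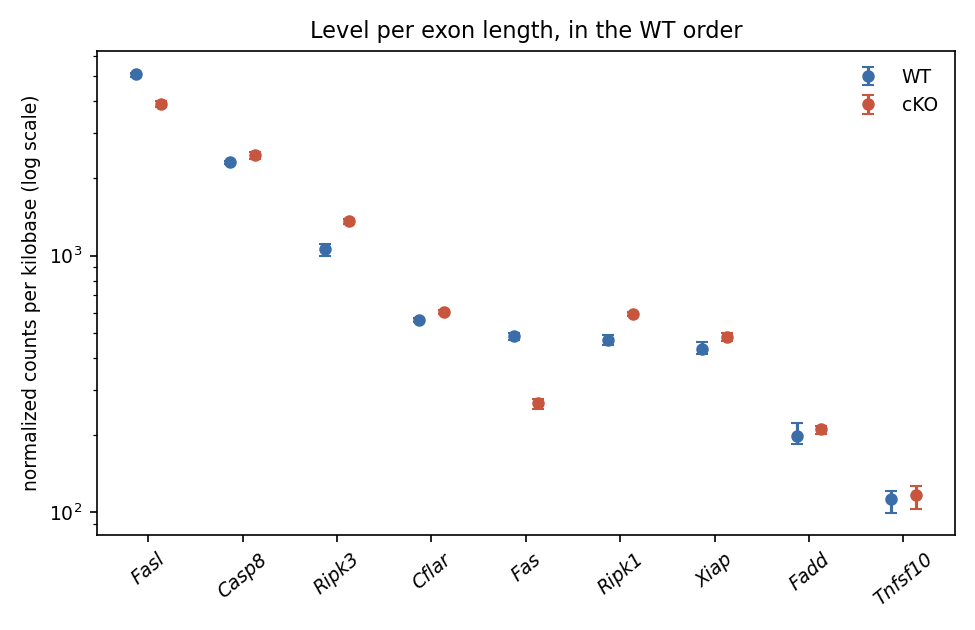
Normalized counts per kilobase of exon (vertical axis, log scale) of the 9 genes in the order of their WT level, for WT (blue) and cKO (red). Points are means of 3 samples and bars run from the lowest to the highest sample. Fasl is highest in both genotypes, and Fas, at 486 in WT, lies at 266 in cKO, below Ripk1 and Xiap.

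Ratios inside a sample do not depend on the size factor. For 5 pairs of genes, chosen after their values were seen, the ratio of normalized counts was computed in each sample. Fas over Fasl was 0.0967, 0.101 and 0.107 in WT and 0.0670, 0.0745 and 0.0752 in cKO, so the receptor fell by more than the ligand. The ratio of Cflar to Casp8, the inhibitor to its target, was 1.06, 1.06 and 1.06 in WT and 1.04, 1.03 and 1.13 in cKO. Its means of 1.06 ± 0.00316 and 1.07 ± 0.0590 (SD, n = 3) did not separate the genotypes, and the 3 cKO samples spread wider than the 3 WT samples.

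Both kinases were higher relative to the protease in every cKO sample. Ripk1 over Casp8 was 0.605, 0.562 and 0.591 in WT and 0.671, 0.671 and 0.734 in cKO. Ripk3 over Casp8 was 0.337, 0.383 and 0.371 in WT and 0.440, 0.427 and 0.442 in cKO. Their ratio to each other, Ripk3 over Ripk1, overlapped between genotypes, with means of 0.622 ± 0.0623 in WT and 0.631 ± 0.0274 in cKO (SD, n = 3). By the two-sided exact permutation test p was 0.1 for Fas over Fasl and for both kinase ratios to Casp8, 1.0 for Cflar over Casp8 and 0.8 for Ripk3 over Ripk1. Adjusted over the 5 ratios by Benjamini-Hochberg, the lowest p was 0.167.

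**Figure D4:**
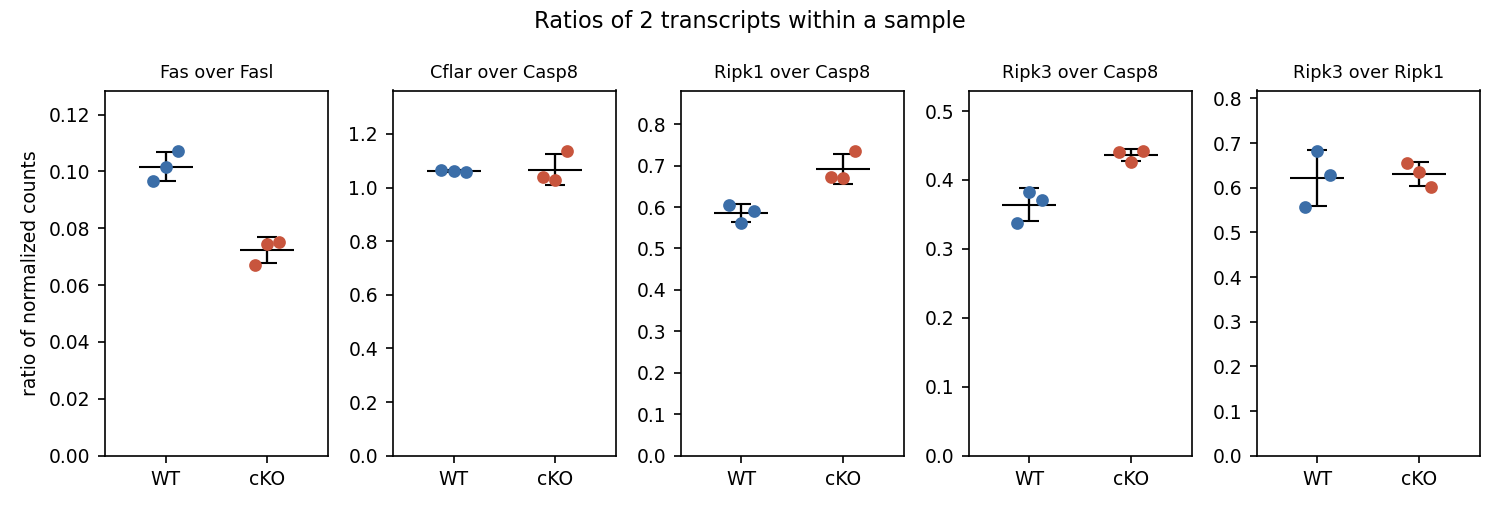
Ratio of the normalized counts of 2 genes inside each sample (vertical axes, each from 0) for 5 pairs in WT (blue) and cKO (red). Points are samples, the horizontal line is the mean and the error bar the SD. Fas over Fasl averages 0.102 in WT and 0.0722 in cKO and both kinase ratios to Casp8 are higher in every cKO sample, while Cflar over Casp8 and Ripk3 over Ripk1 overlap.

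The genes around these 9 were followed through a list of 43 others of the pathway, of which 41 had a row. Of these, 10 rose, 9 fell and 22 did not pass the test, so 46.3% were called, between the 36.6% of all genes and the 50.7% of genes with a mean of at least 500. The log2 fold change had a median of 0.02 over the 41 and 0.0014 over all genes. The split moved to 12 higher and 7 lower with samples scaled to equal totals, 9 and 12 with the GC content and length correction, and 10 and 11 with the replicate block.

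Among 8 other receptors and decoys, 3 rose and 2 fell, so 62.5% were called. This stands beside 36.6% of all genes and 50.7% of those with a mean of at least 500 normalized counts. Most of the 8 lay below that mean, among them Tnfrsf10b, Tnfrsf22 and Tnfrsf23, so the second share is not matched to them. Tnfrsf22, a decoy receptor for TRAIL in mice, rose most, from 153 ± 20.4 to 227 ± 15.96 normalized counts (SD, n = 3, log2 fold change 0.57, limma adjusted p = 0.00395). Tnfrsf23, another such decoy, had means of 86.0 in WT and 64.7 in cKO and did not pass the test (log2 fold change −0.44, limma adjusted p = 0.188). Tnfrsf1b, the second TNF receptor, fell most, from 36899 ± 518 to 26415 ± 144 normalized counts (SD, n = 3, log2 fold change −0.48, limma adjusted p = 5.09e-13). Tnfrsf10b, the death receptor for TRAIL in mice and named here as the partner of Tnfsf10, had 289, 328 and 255 normalized counts in WT and 260, 278 and 279 in cKO, and did not pass the test (limma adjusted p = 0.637). Of the 5 other TNF family ligands, 2 rose and 2 fell, so 80.0% of this small group were called. Tnf itself had 2689, 2472 and 2608 normalized counts in WT and 4522, 4629 and 4261 in cKO, a change of 0.79 on the log2 scale (limma adjusted p = 2.00e-13), so it moved the opposite way to Fasl. Tnfsf14, which encodes LIGHT, fell by 0.35 on the log2 scale (limma adjusted p = 4.27e-08).

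Of the 12 adaptors and ubiquitin regulators that sit at TNF receptors, 5 fell, 1 rose and 6 did not pass the test. Among all genes, 18.8% were lower and 17.8% higher. Of genes with a mean of at least 500 normalized counts, which holds for all 12, 50.7% passed in either direction. The share of the 12 that was called was therefore not above that of genes this abundant. Traf1, an adaptor of TNF receptors, fell from 47685 ± 184 to 30031 ± 55.8 normalized counts (SD, n = 3, log2 fold change −0.67, limma adjusted p = 5.44e-16). Sharpin, a subunit of the linear ubiquitin ligase, was the one that rose, with a change of 0.22 on the log2 scale (limma adjusted p = 0.000133).

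Downstream of caspase-8, 2 of 9 executioner and mitochondrial genes rose and none fell. The share called, 22.2%, was below the 36.6% of all genes and the 50.7% of genes with a mean of at least 500. Casp9, the initiator caspase of the mitochondrial route, had the larger rise, with a change of 0.29 on the log2 scale (limma adjusted p = 0.00167). Bid, the other gene that rose, was close to the threshold (limma adjusted p = 0.0494). Mlkl, the target of RIPK3, had 636, 707 and 670 normalized counts in WT and 662, 777 and 620 in cKO (limma adjusted p = 0.841), so neither it nor Zbp1, the other necroptosis gene listed, passed the test where Ripk3 did. Of 5 modulators of Fas signalling, Faim, an inhibitor of Fas-induced death, and Daxx, which binds the Fas death domain, rose, and Faim had the larger change of 0.20 on the log2 scale (limma adjusted p = 0.00405). Tnfrsf10b, Tnfrsf23, Bid, Mlkl, Zbp1 and Daxx were named after their values were seen.

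**Figure D5:**
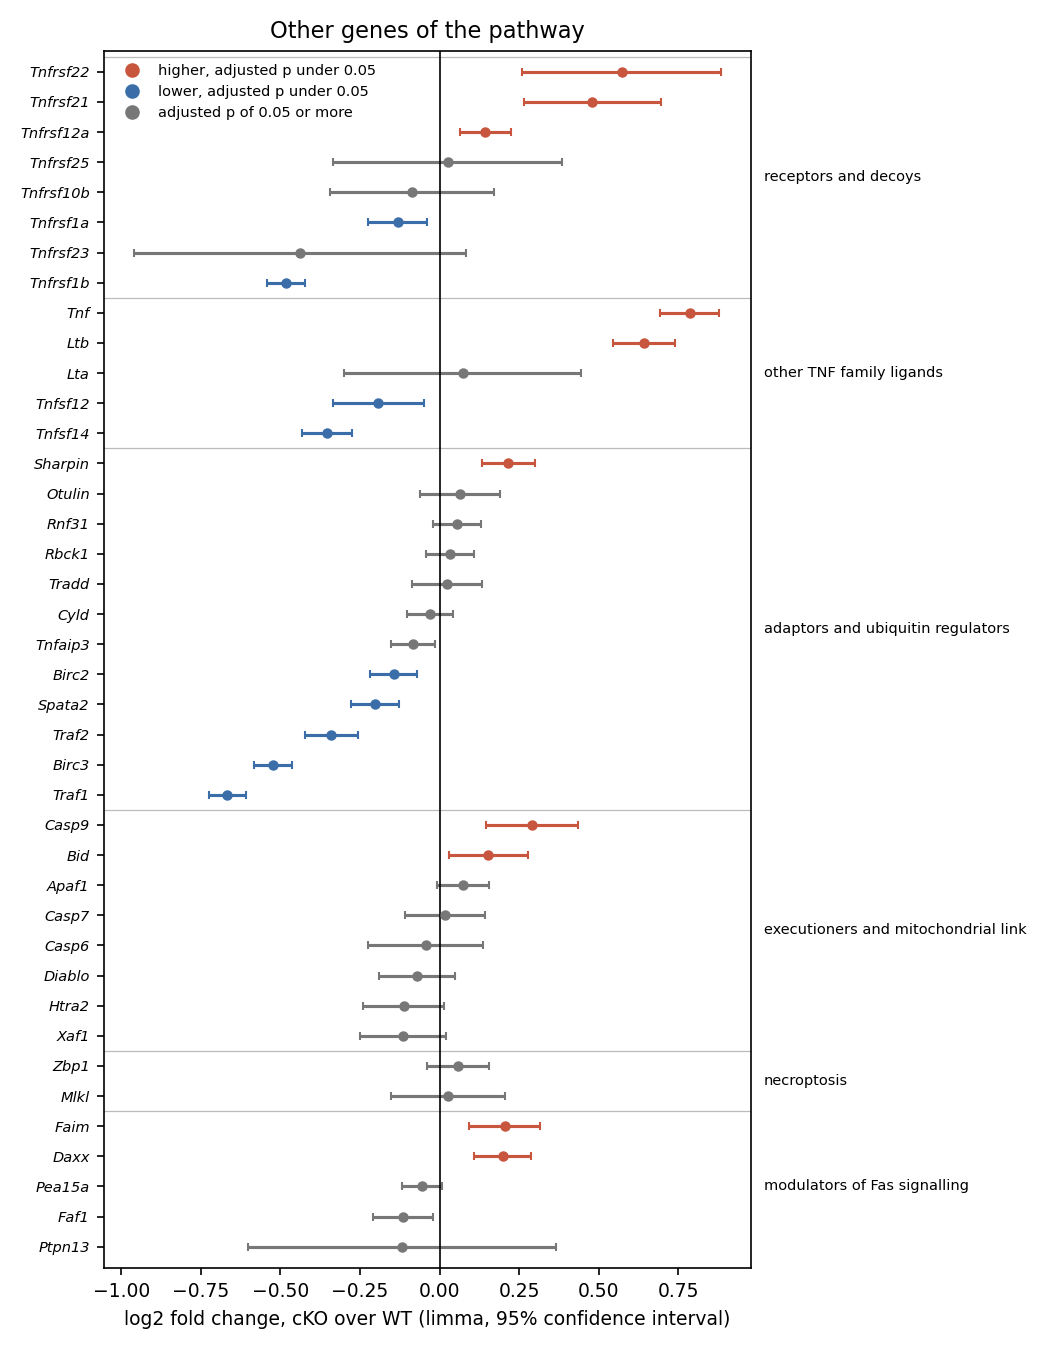
Log2 fold change of cKO over WT (horizontal axis) with limma 95% confidence intervals for 40 of the 41 other genes of the pathway, grouped by role. Red marks an adjusted p under 0.05 and higher in cKO, blue the same and lower, grey the others. Tnf at 0.79 and Traf1 at −0.67 are the extremes, and the 2 necroptosis genes lie near 0.

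The sorted populations differed in other marker genes, given here beside the changes above. Of 6 markers of mature NK cells 2 rose and 2 fell, and of 3 markers of immature NK cells 1 rose and 1 fell. Log2 fold changes of the called mature markers were −1.34 for Ly6c2, −0.55 for Klrg1, 0.49 for S1pr5 and 0.54 for Cx3cr1. Those of the called immature markers were −0.53 for Kit and 0.52 for Il7r. Beside these counts and those below, 36.6% of all genes were called, and 50.7% of genes with a mean of at least 500 normalized counts. Ncr1, the gene that carries Cre in cKO, had 22147 to 22707 normalized counts in WT and 16678 to 17138 in cKO. The T-cell markers given beside Fas mark cells in which Fasl is also known to be expressed, and 5 myeloid markers, of which 3 were called higher and 1 lower, summed to 7027 to 7623 and 6974 to 7786. The 10 NK-cell markers summed to 706583 to 731153 normalized counts in WT and 680097 to 706213 in cKO. Of the 10 NK-cell markers, 5 were called lower (Ncr1, Nkg7, Klrb1c, Klrk1 and Prf1, with log2 fold changes from −0.40 for Ncr1 to −0.18 for Prf1, beside −0.38 for Fasl) and 2 higher (Tbx21 and Il2rb). Their part in the results was not tested.

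Across the 6 samples, the genes whose log2 values followed Fas most closely, of 11752 compared, were Coq8a, Hnrnpu and Rbm39, each with a Pearson r of 0.999. Coq8a, a mitochondrial gene of coenzyme Q synthesis, fell from 1724 ± 31.5 to 1204 ± 32.2 normalized counts (SD, n = 3). In all, 1713 genes had an r above 0.9 with Fas. The points share the split between 3 WT and 3 cKO samples, so any gene that is lower in cKO with little spread scores high on this measure.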

How the data were processed

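NK cells sorted from the spleen of WT and cKO mice were profiled by mRNA-seq, 3 samples per genotype, with genotype and replicate number taken from the sample labels. The submitters' processing notes name HISAT2, featureCounts 1.5.0-p3, DESeq2 1.16.1 and the GRCm38 build as what the authors used. Each sample column was deposited by the authors as a signal, the reads counted on a gene over a DESeq2 size factor. All values up to 5000 reads were within 0.1 read of a whole multiple of one step per sample, which gave the reads on listed genes, not the depth of the whole library. The deposited table also holds the authors' mean, fold change, standard error, Wald statistic, p-value and adjusted p-value, which were not used.

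Values were taken as log2(value + 1). Requiring 1 or more in 3 or more samples kept all 14490 genes. limma 3.58.1 in R 4.3.3 fitted genotype and let the variance follow a trend with abundance. The tests are two-sided, with Benjamini-Hochberg adjusted p-values, and the steps were tested on simulated data. Single values were compared by the exact permutation test. Of the listed names, 14073 (97.1%) matched 1 symbol of GENCODE M21, which gave positions, exon lengths and transcript sequences.

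The 9 genes, the lists and the tests were chosen with earlier results of these data known. Named besides them are Mettl3, the called gene with the largest rise and the largest fall in each role group of the other pathway genes, and the 3 genes most like Fas among those with a mean of at least 1 CPM. The alternatives changed the pseudocount to 0.1, dropped the filter, required 1 CPM in 3 samples, scaled samples to equal totals, used limma-voom on the recovered reads or a replicate block, left out single replicates, or applied the rule of the study. Quantile normalization, a correction for GC content and length (splines of 5 degrees of freedom, 11783 genes) and the ratios were added after the data were seen. The values of 1 of the other pathway genes are not reported here.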

Additional observations from a re-analysis of the deposited data

How the results depend on the processing

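The same 7 genes were called with a pseudocount of 0.1, no filter, the CPM filter, equal totals, limma-voom, quantile normalization and the GC content and length correction, and Fas, Fasl, Ripk1, Ripk3 and Xiap also with any 1 replicate left out. Leaving out single replicates gave 5 to 7 genes called, log2 fold changes of 0.0778 to 0.125 for Casp8 and 0.0852 to 0.114 for Cflar, and −0.0397 to 0.14 for Tnfsf10, which was −0.0397 without WT replicate 3 and −0.0071 with cKO replicate 3 left out. Of the other pathway genes, 18 were called with any replicate left out, against 19. The log2 difference of Cflar over Casp8 ranged from −0.0401 (cKO replicate 3 left out) to 0.0322, and that of Ripk3 over Ripk1 from −0.0541 (WT replicate 1 left out) to 0.0909, with −0.0049 when cKO replicate 1 was left out. The cause was not tested. By the rule of the study 0 of the 9 genes and 0 of the other pathway genes were called, since none had a log2 fold change past 1 in size. Under equal totals the median change over the table was 0.05 (log2), and 63.4% of 5503 calls were then higher in cKO, against 48.5% of 5307. With a replicate block 7 of the 9 genes and 5543 genes in all were called. Deviations of equally numbered samples correlated at 0.0039, 0.117 and 0.056, and those of unequally numbered samples at −0.0925 to 0.0389. With 3 samples per genotype these values cannot decide whether the numbers pair the samples. The 2 planned count-model alternatives on the recovered reads were not run. With 3 samples per genotype, differences as small as those of Casp8 and Cflar are near the limit of what could be called.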
